A study of Mus musculus with 48 samples.

Results

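The hours before lights off were studied in the kidneys of young NZB/W F1 mice, which are prone to lupus nephritis when older. All 10 young arrays of 2 Zeitgeber times were taken by the source name in the labels: 6 arrays of ZT12, when the lights go off and mice wake, and 4 arrays of ZT8, out of 48 arrays in the series. Each array held the kidney RNA of 1 female mouse that was 12 weeks old, untreated and perfused with saline, and the groups shared strain, age and treatment and differed in the time of harvest. The ZT12 arrays came in 2 sets of 3, called here the ZT_12 set and the CR3 set after the codes in their titles, and all 4 ZT8 arrays carried a single further code, so that code and time cannot be told apart between ZT12 and ZT8. Expression was read on Illumina MouseRef-8 bead arrays with 1 colour, and all values below are log2 intensities after background correction and quantile normalization, where 1 unit is a factor of 2. The other groups used here were the 16 young arrays of ZT0, ZT4, ZT16 and ZT20, which entered the estimate of spread, and 5 arrays each of nephritic kidneys at ZT12 and ZT8, from older mice of the same cross with proteinuria.

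In the circadian clock, the transcription factors BMAL1 and CLOCK switch on the genes of their own repressors, the PER and CRY proteins, and of Nr1d1 and Dbp, which pass the rhythm on to other genes. Lights off is the waking hour of mice, and the adrenal gland releases most of its glucocorticoid shortly before it. The hormone enters cells, binds its receptor and switches on genes such as Fkbp5, Tsc22d3 and Sgk1. The kidney is known for daily rhythms of filtration, of salt and water transport and of the handling of drugs and metabolites.

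The tissue matched its label. Of the proximal tubule markers 8 of 9 were tested, of the thick limb and distal tubule markers 6 of 7, and of the collecting duct markers 7 of 8, whereas of 7 podocyte markers the 3 on the array were tested. The 10 arrays had median signals of 104.7 to 117.9 and 13130 to 13826 detected probes each, and 0 pairs of arrays held identical values. One array stood apart: on ZT12 replicate 5, of the ZT_12 set, 8 of 9 adrenal markers were detected, against 0 or 1 on each other array. The steroid hydroxylase gene Cyp11b1 of the adrenal cortex was at 10.63 there, against 4.23 to 4.56 on the other 9, and Chga of the adrenal medulla at 7.25, against at most 4.36. Several of the results that include this array, but not all, are also given without it. A gene was tested where its probe was detected on at least 4 of the 10 arrays, which gave 9459 genes. Nothing in the labels says more than that each array was a separate mouse, so p-values measure the spread between these arrays.

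The first comparison asked which genes changed in the 4 h from ZT8 to ZT12. By limma 501 of 9459 genes (5.30%) differed at an adjusted p under 0.05, with 290 higher (3.07%) and 211 lower (2.23%) at ZT12. Under normexp and median scaling 302 were higher and 123 lower at that adjusted threshold. Without adjustment 1976 genes had a p under 0.05 in the main limma fit. Changes were moderate: 106 of the 501 genes (1.12% of all tested) differed by at least 1.5-fold, 73 higher and 33 lower. At least 2-fold changes were found for 15 higher and 5 lower genes. The ZT12 and ZT8 arrays did not overlap for 410 genes (4.33%), of which 272 had passed the test. Of 21 genes of the glucocorticoid response 9 rose, and 6 of 20 core clock genes changed, in both directions. Without ZT8 replicate 4 the count was 249, without ZT12 replicate 6 it was 315 and without ZT12 replicate 5, the array with adrenal markers, 340. Taking the title code as a random block gave 111, only the 10 arrays in the fit 102, all 48 arrays in the fit 46, and the mean level of 5 adipose marker genes as a covariate 173. Among markers of other cells 2 of 5 adipose markers (Lep and Adig), 1 of 7 endothelial markers (Ehd3, log2 0.38, adjusted p = 0.0209) and 1 of 5 myeloid markers (Cd14, 0.39, 0.0495) rose. Ehd3 lost its call without ZT8 replicate 2 or 3 (up to 0.0835) and Cd14 without 8 of the 10 arrays in turn (up to 0.178), both also with the random block. For the adrenal list 1 of 9 markers was tested and did not pass (Cyp11b2, which ZT12 replicate 5 held at the level of the others), and 0 of 8 fibroblast and mural markers passed in limma, 2 of them at an unadjusted p under 0.05. In whole kidneys, fewer cells of a type and less RNA per cell cannot be told apart.

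To show the sequence next to which these changes were read, the stretch around the annotated start is printed for 3 genes: Fkbp5, with the largest rise among genes whose arrays did not overlap, Per1, the clock gene that rose most, and Nr1d1, which fell most of all genes that passed. Sequences are RefSeq promoters of GRCm38.p6, from 250 bases before to 50 bases after the start, 5′ to 3′ on the strand of the gene. Capitals mark CACGTG, the E-box that BMAL1 and CLOCK bind. Fkbp5 lies on the minus strand (chr17:28486100-28486399), Per1 on the plus strand (chr11:69098699-69098998, the first of its starts) and Nr1d1 on the minus strand (chr11:98775328-98775627).
Fkbp5: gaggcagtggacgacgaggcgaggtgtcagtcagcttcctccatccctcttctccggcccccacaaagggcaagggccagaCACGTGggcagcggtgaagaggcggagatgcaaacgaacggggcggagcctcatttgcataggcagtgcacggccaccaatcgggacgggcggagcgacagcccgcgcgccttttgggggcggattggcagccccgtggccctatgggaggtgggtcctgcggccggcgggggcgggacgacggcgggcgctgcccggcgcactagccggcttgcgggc
Per1: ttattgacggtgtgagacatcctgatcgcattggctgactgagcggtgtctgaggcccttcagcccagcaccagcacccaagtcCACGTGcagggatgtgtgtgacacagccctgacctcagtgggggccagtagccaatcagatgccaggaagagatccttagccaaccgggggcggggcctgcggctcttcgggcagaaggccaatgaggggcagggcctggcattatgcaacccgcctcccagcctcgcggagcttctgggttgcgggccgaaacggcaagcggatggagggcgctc
Nr1d1: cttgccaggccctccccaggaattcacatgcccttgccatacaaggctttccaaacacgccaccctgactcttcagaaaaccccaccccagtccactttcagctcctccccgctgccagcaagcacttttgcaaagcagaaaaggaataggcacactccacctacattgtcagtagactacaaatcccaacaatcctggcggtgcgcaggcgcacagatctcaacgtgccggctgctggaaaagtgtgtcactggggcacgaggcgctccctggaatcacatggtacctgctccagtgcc
The E-box began at position -169 from the start of Fkbp5 and at -166 from that of Per1, and the window of Nr1d1 held none. Both strands were also searched for the D-box (TTATGTAA or TTACGTAA), the cAMP response element (TGACGTCA) and the inner letters of a heat shock element (TTCNNGAA), and these windows held none of them; an absent match speaks only of these letters in this window. Of all 32851 promoters of that length, 7.15% held the E-box, 1.06% the D-box, 1.79% the cAMP response element and 8.52% the heat shock letters. Promoters were found for 49 of 59 named genes with a clock role, a glucocorticoid role or a leading change. Among the 29 of these that passed the test, 3 held the E-box at 1 start or more (Fkbp5, Per1 and Sgk1), and of 7686 tested genes with a promoter 11.7% did. The heat shock letters stood near 5 of the 29 (8.24% of the 7686), the cAMP response element near 1 (3.40%) and the D-box near 0 (0.989%).

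Core clock genes moved apart in these 4 h. Of 26 listed genes 24 were on the array and 20 were tested. The repressors Per1 and Per2 and the repressor of D-box genes Nfil3 rose, Nr1d1, Dbp and the PER degradation factor Btrc fell, and 14 did not pass, with a median change of 0.00 over the 20 genes and 0.01 over all genes tested. Per1 stood at 9.08, 9.73 and 9.78 in the ZT_12 set and at 9.03, 9.68 and 9.65 in the CR3 set, against 8.34, 8.61, 8.37 and 8.42 at ZT8. Every ZT12 array was above every ZT8 array, and in each set 1 array lay well below the other pair. Per1 was 2.08-fold higher at ZT12 (log2 1.06 ± 0.25, SE; adjusted p = 0.0151). The call was lost with the CR3 set alone, with array weights, with the random block and with all 48 arrays in the fit (adjusted p up to 0.111). With the random block 1 rise and 2 falls of the list were left, with all 48 arrays in the fit 1 and 1.

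Nfil3 followed with 8.58, 8.14 and 8.23 in the ZT_12 set and 8.77, 8.79 and 8.42 in the CR3 set, against 7.57, 7.85, 7.59 and 7.41 at ZT8. It was 1.85-fold higher (log2 0.88 ± 0.13, adjusted p = 2.1e-04), with no overlap of the times. Per2 lay between 9.79 and 9.91 in the ZT_12 set and between 9.93 and 10.20 in the CR3 set, against 9.18 to 9.37 at ZT8. These groups did not overlap either, and Per2 was 1.59-fold higher (adjusted p = 0.0400). Its call was close to the threshold: it was lost without any 1 of 9 of the 10 arrays, where the adjusted p reached 0.0984.

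Nr1d1, a repressor of the BMAL1 gene, had the largest fall of all genes that passed. It stood at 7.40, 7.62 and 7.31 in the ZT_12 set and 6.92, 7.09 and 7.11 in the CR3 set, against 8.76, 8.47, 8.60 and 8.48 at ZT8. Both sets lay far below ZT8, the CR3 set lower than the ZT_12 set. The level was 2.53-fold lower at ZT12 (log2 -1.34 ± 0.26, adjusted p = 0.00342). Dbp, a transcription factor and clock output, stood at 11.55, 12.06 and 11.43 in the ZT_12 set and 11.44, 11.39 and 11.51 in the CR3 set, against 12.26, 12.07, 12.58 and 12.30 at ZT8. The highest ZT12 array, replicate 5, lay just below the lowest ZT8 array, and Dbp was 1.66-fold lower (log2 -0.74 ± 0.14, adjusted p = 0.00213). Btrc was 1.28-fold lower (adjusted p = 0.0176), a call lost without ZT8 replicate 3 or 4 (adjusted p up to 0.0585).

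Among clock genes that did not pass, Arntl, which encodes BMAL1, averaged 4.75 ± 0.16 at ZT12 (SD, n = 6) and 4.81 ± 0.32 at ZT8 (n = 4), close to background and detected on 4 of 6 and 3 of 4 arrays. Its partner Clock averaged 8.71 ± 0.15 and 8.64 ± 0.14. Nr1d2 was lower by 0.32 ± 0.14 (adjusted p = 0.191) and Ciart by 0.30 ± 0.16 (0.311), and the PER kinase gene Csnk1e was higher by 0.26 ± 0.09 (0.0763). Usp2, a deubiquitinase with a clock role, was higher on all 6 ZT12 arrays (log2 0.35 ± 0.14, adjusted p = 0.151). For Per3, Cry2, Tef and Rora the change was between -0.02 and 0.09, with standard errors of 0.10 to 0.19.

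**Figure D1:**
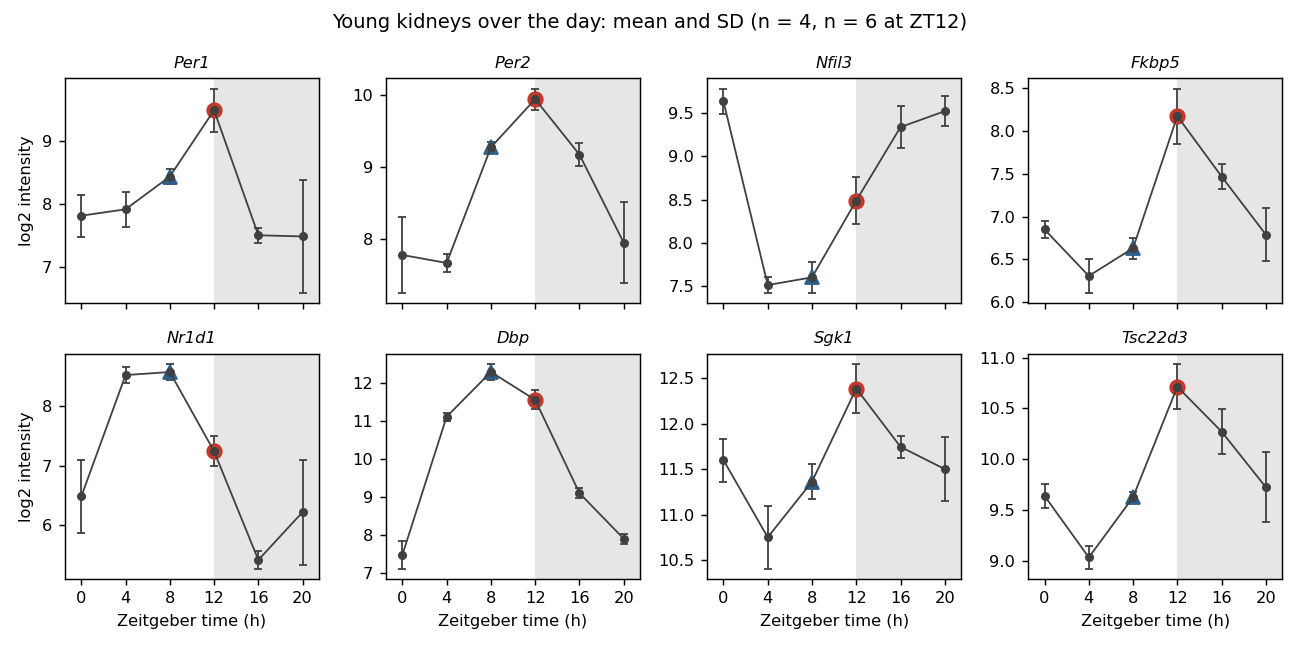
Mean log2 intensity in young kidneys at each Zeitgeber time (h), with SD over 4 arrays (6 at ZT12), for 5 clock genes and 3 glucocorticoid-induced genes; the triangle marks ZT8, the large circle ZT12 and the grey field the dark phase. Per1, Per2, Fkbp5, Sgk1 and Tsc22d3 had their highest mean at ZT12, and Nr1d1 and Dbp at ZT8.

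The place of this step in the day differed between the clock genes, as the plot over 6 times shows. Per1 averaged 7.81 at ZT0, 7.92 at ZT4, 8.44 at ZT8, 9.49 at ZT12, 7.50 at ZT16 and 7.48 at ZT20, and Per2 also had its highest mean at ZT12. Nfil3 was lowest at ZT4, 7.51, and kept higher means after ZT12, up to 9.63 at ZT0. Dbp stood at 7.48 at ZT0, 11.12 at ZT4, 12.30 at ZT8, 11.57 at ZT12, 9.10 at ZT16 and 7.90 at ZT20, so that the fall from ZT8 to ZT12 was small beside the next. Of the 290 genes that rose, 201 had their highest young mean at ZT12 (69.3%, against 20.2% of all genes tested) and 188 their lowest at ZT8. Of the 211 that fell, 155 had their highest mean at ZT8 (73.5%, against 20.2%) and 107 their lowest at ZT12. The step itself chose these genes, so these counts describe them and are no test.

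Glucocorticoid-induced genes made up the group with the largest share of rises. Of 21 tested members 9 rose (42.9%, against 3.07% of all genes), 1 fell and 11 did not pass, with a median of 0.56 against 0.01 over all genes. This list and the others below were chosen with earlier results of these data known, so their shares are a description and no independent evidence. Fkbp5, a chaperone that dampens the glucocorticoid receptor, had the largest rise of all genes without overlap. It stood at 7.90, 8.51 and 8.24 in the ZT_12 set and 7.96, 8.59 and 7.85 in the CR3 set, against 6.72, 6.48, 6.58 and 6.74 at ZT8. The lowest ZT12 array was more than 1 unit above the highest ZT8 array, and the sets spanned similar ranges. Fkbp5 was 2.92-fold higher at ZT12 (log2 1.55 ± 0.14, adjusted p = 3.87e-07).

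Tsc22d3, which encodes the anti-inflammatory protein GILZ, stood at 10.50, 10.90 and 11.07 in the ZT_12 set and 10.66, 10.59 and 10.55 in the CR3 set, against 9.69, 9.57, 9.65 and 9.60 at ZT8. It was 2.12-fold higher (log2 1.09 ± 0.13, adjusted p = 1.62e-05), with a narrow range at ZT8 and the highest arrays in the ZT_12 set. Sgk1, a kinase that raises sodium uptake in the distal nephron, stood at 12.12, 12.01 and 12.49 in the ZT_12 set and 12.42, 12.73 and 12.55 in the CR3 set, against 11.43, 11.60, 11.17 and 11.25 at ZT8. Here the CR3 set held the higher arrays, and the rise was 2.04-fold (log2 1.03 ± 0.16, adjusted p = 6.87e-04).

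The kinase gene Map3k6 was 1.91-fold higher (adjusted p = 9.29e-04), the sulfotransferase Sult1a1 1.69-fold (5.42e-04), the NF-κB inhibitor Nfkbia 1.61-fold (0.00516), the EGF receptor inhibitor Errfi1 1.52-fold and Hsd11b1, which regenerates active glucocorticoid, 1.47-fold (0.00131 for both). For all 5 genes the times did not overlap. The transcription factor gene Cebpb was 1.5-fold higher (adjusted p = 0.0315), with ZT12 replicate 4, at 8.78, below all ZT8 arrays, and lost its call without 6 of the 10 arrays in turn (up to 0.0773). The metallothionein gene Mt1, also glucocorticoid-induced in textbooks, was 1.26-fold lower (adjusted p = 0.0487), a call lost without 9 of the 10 arrays in turn (up to 0.101). Dusp1 was higher by 0.65 ± 0.29 and Pdk4 by 0.56 ± 0.27, neither of which passed (adjusted p = 0.201 and 0.228), and Klf9 by 0.08 ± 0.10. Bcl6 was at -0.66 and Mt2 at -0.26, also without passing (adjusted p = 0.114 and 0.304). Lpin1 was at 0.44, Ddit4 at 0.28 and Cdkn1a at 0.27 (0.0771, 0.305 and 0.335). Over the list 16 of the 21 changes were positive. The count of 9 rises was 8 to 10 when 1 array was left out, 8 without ZT12 replicate 5, 7 when the title code was a random block or only the 10 arrays were in the fit, 9 from either ZT12 set alone and 8 with the adipose covariate. With all 48 arrays in the fit it was 3, Fkbp5, Tsc22d3 and Map3k6, and the other 6 lost their calls (adjusted p 0.0931 for Sgk1, up to 0.264 for Cebpb). Sgk1 and Tsc22d3 are also among 11 tested blood pressure genes that the study named, where 2 rose and 1, the growth factor gene Pdgfb, fell by 0.36 (adjusted p = 0.00836); that list was chosen on these samples, so it is no independent evidence of direction.

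**Figure D2:**
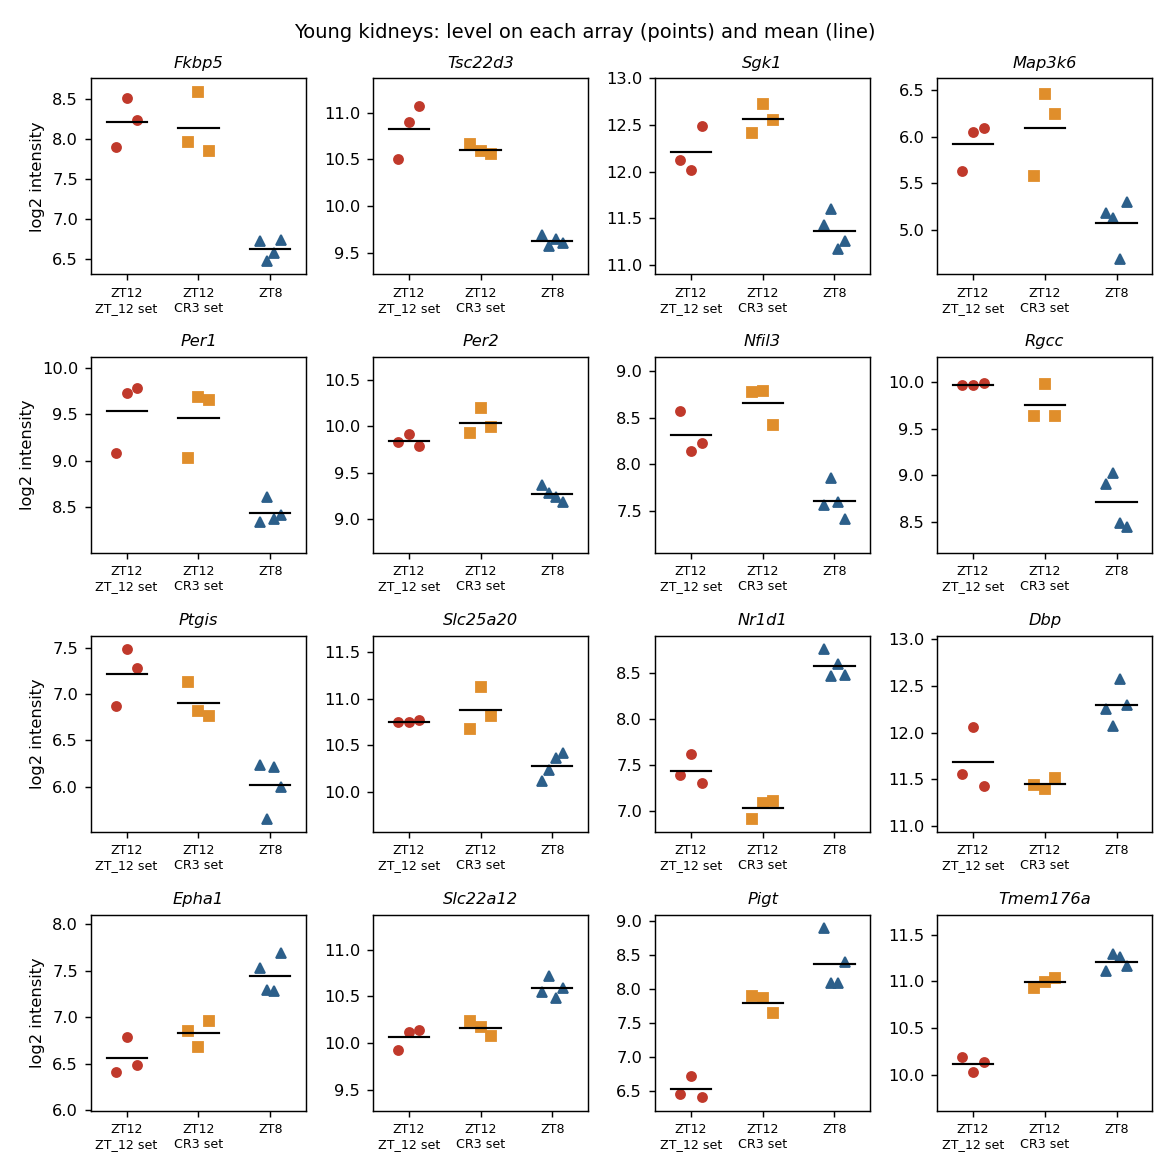
Log2 intensity of 16 genes on each array, with the ZT_12 set of ZT12 on the left (circles), the CR3 set of ZT12 in the middle (squares) and ZT8 on the right (triangles); lines are means. Fkbp5 lies between 7.85 and 8.59 on the ZT12 arrays and between 6.48 and 6.74 on the ZT8 arrays, and for Pigt and Tmem176a the ZT_12 set lies below the CR3 set.

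The other leading rises had varied roles. Rgcc, a cell cycle regulator that responds to complement, stood at 9.97, 9.97 and 9.99 in the ZT_12 set and 9.64, 9.98 and 9.64 in the CR3 set, against 8.90, 9.03, 8.48 and 8.45 at ZT8. It was 2.22-fold higher (log2 1.15 ± 0.14, adjusted p = 4.57e-05), with the ZT_12 arrays almost alike. Ccn2, a matrix-bound growth factor, was 2.16-fold higher (adjusted p = 4.59e-04), with ZT12 between 10.94 and 11.58 against 10.05 to 10.51 at ZT8. The prostacyclin synthase Ptgis was 2.05-fold higher (7.78e-05), from 6.76 to 7.48 against 5.66 to 6.23. The acyltransferase Acnat2, of fatty acid conjugation, was 2.02-fold higher (1.62e-05) and BC028528 2.01-fold higher (9.22e-06). The transcription factor gene Foxq1 was 1.98-fold higher (0.00455), the cytokine signalling inhibitor Cish 1.95-fold (0.0255) and the nuclear protein gene Csrnp1 1.91-fold (0.00800). Cish had a narrow ZT8 range, 9.77 to 9.87, and a wide one at ZT12, up to 11.54, and its call was lost without ZT12 replicates 2 or 4 or ZT8 replicates 2, 3 or 4 (adjusted p up to 0.0620).

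Among 16 tested immediate early genes, which answer to stimuli within minutes, the median was 0.31 and 5 had an unadjusted p under 0.05. Of the 16, 3 rose (18.8%, against 3.07% of all genes) and 0 fell (against 2.23%). Besides Ccn2 these were the stress response gene Ier3, 1.88-fold higher (adjusted p = 1.19e-04), and the transcription factor gene Klf6, 1.38-fold higher (0.00131), both without overlap of the times. With all 48 arrays in the fit 1 rise, Ccn2, was left. Elsewhere in this list the sets differed. Its median was 0.14 in the ZT_12 set and 0.55 in the CR3 set, and Ccn1, a relative of Ccn2, stood at 6.38, 5.54 and 5.78 in the ZT_12 set and 7.12, 7.37 and 7.19 in the CR3 set, against 6.27 to 6.80 at ZT8.

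Genes of fatty acid breakdown rose in part. Of 32 tested genes 6 rose (18.8%, against 3.07% of all genes), 0 fell (against 2.23%) and 26 did not pass, with a median of 0.07. Slc25a20, the carrier that brings acylcarnitines into mitochondria, lay at 10.75, 10.75 and 10.77 in the ZT_12 set and 10.68, 11.13 and 10.82 in the CR3 set, against 10.12, 10.24, 10.36 and 10.42 at ZT8. It was 1.45-fold higher (adjusted p = 0.00204), and the mitochondrial thioesterase Acot2 was 1.47-fold higher (0.00281), with no overlap for either. The peroxisome gene Pex11a was 1.32-fold (0.0291) and the isomerase Eci1 1.31-fold (0.0406) higher, with overlap, and Pex11a lost its call without 6 and Eci1 without 7 of the 10 arrays in turn (up to 0.0980 and 0.139). For Pex11a the step was 0.61 in the ZT_12 set and 0.18 in the CR3 set (difference adjusted p = 0.0131). Without 1 array the count of rises was 2 to 7: it was 2 without ZT12 replicate 4 or 6 or ZT8 replicate 2, and 3 without ZT12 replicate 5 or ZT8 replicate 3 or 4. It was 2 when the title code was a random block, 3 with the adipose covariate and 0 with all 48 arrays in the fit.

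Genes of drug and xenobiotic metabolism showed 5 rises (17.9%, against 3.07% of all genes) and 0 falls (against 2.23%) among 28 tested. The median was 0.17. The carboxylesterase Ces1d, one of the brightest genes, stood at 13.15, 13.11 and 13.16 in the ZT_12 set and 13.11, 13.31 and 13.17 in the CR3 set, against 12.66, 12.63, 12.89 and 12.73 at ZT8. It was 1.36-fold higher with small spread (adjusted p = 7.28e-04). The sulfotransferase Sult1d1 was 1.49-fold higher (9.29e-04), the monooxygenase Cyp2e1 1.68-fold (0.0187) and the epoxide hydrolase Ephx1 1.25-fold (0.0315). Cyp2e1 rose by 1.07 in the ZT_12 set and was higher by 0.42 in the CR3 set, and lost its call without ZT8 replicate 1 or 2 (up to 0.0824). Ephx1 lost its call without 5 of the 10 arrays in turn (up to 0.122). Without 1 array the list held 3 to 5 rises, 3 without ZT12 replicate 5 or ZT8 replicate 1, 2 or 4, and the count was 2 with the random block, with the CR3 set alone or with the adipose covariate and 0 with all 48 arrays in the fit.

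Synthesis of lipids and sterols held 3 falls (13.6%, against 2.23% of all genes) and 0 rises among 22 tested genes, with a median of -0.12. Dhcr7, the last enzyme of cholesterol synthesis, lay between 5.46 and 6.12 at ZT12 against 6.25 to 6.53 at ZT8 and was 1.53-fold lower (adjusted p = 0.00533). The fatty acid desaturases Fads1 (1.33-fold, 0.0130) and Fads2 (1.25-fold, 0.0499) were lower too, Fads1 without overlap. Fads1 lost its call without ZT8 replicate 2 or 4 (up to 0.0534), and Fads2 without 7 of the 10 arrays in turn (up to 0.131). All 3 calls were lost with a random block for the title code and with only the 10 arrays in the fit, where the list held 0 falls, and Dhcr7 lost its call also with the CR3 set alone and with the adipose covariate (up to 0.0837).

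In glucose metabolism 2 of 28 tested genes rose (7.14%, against 3.07% of all genes) and 2 fell (7.14%, against 2.23%). With a random block for the title code, with only the 10 arrays and with all 48 arrays in the fit, 0 rose and 0 fell in limma. The glucose-6-phosphatase gene G6pc was 1.59-fold higher (adjusted p = 0.00673), with 11.99 to 12.40 at ZT12 against 10.90 to 12.00 at ZT8. Hexokinase genes went opposite ways: Hk2 was 2.07-fold higher (0.0395) and Hk1 1.42-fold lower (0.0224). Hk2 stood at 6.48, 7.10 and 7.01 in the ZT_12 set, but at 5.30, 5.89 and 5.67 in the CR3 set, within or just above 4.60 to 5.52 at ZT8. Slc5a1, the glucose carrier SGLT1, was 1.26-fold lower (0.0250). Calls were lost without 6 arrays in turn for Hk2, 3 for Hk1 and 2 for Slc5a1 (adjusted p up to 0.125, 0.0796 and 0.0770), and G6pc lost its call also with the CR3 set alone (up to 0.725 over all settings).

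Of 218 tested genes of the solute carrier (Slc) family 12 fell (5.50%, against 2.23% of all genes) and 6 rose (2.75%, near the 3.07% of all genes), with a median of -0.04. With a random block for the title code 2 fell and 2 rose; with normexp and median scaling these were 8 and 6 and the median was -0.01, without ZT12 replicate 4 they were 6 and 5, and without ZT8 replicate 4 they were 9 and 2. Of 30 listed organic solute carriers 4 fell (13.3%) and 1 rose (3.33%, near the 3.07% of all genes), and with the random block 1 fell and 1 rose. Slc22a12, the urate reabsorber URAT1 of the proximal tubule, stood at 9.93, 10.11 and 10.14 in the ZT_12 set and 10.24, 10.17 and 10.07 in the CR3 set, against 10.55, 10.72, 10.48 and 10.59 at ZT8. It was 1.39-fold lower (adjusted p = 0.00131), without overlap and with little difference between the sets. The amino acid carrier genes Slc6a19 (1.47-fold, 0.00940) and Slc7a8 (1.44-fold, 0.0119) were lower, calls lost with the random block, with the CR3 set alone and with the adipose covariate (up to 0.717 and 0.303 over all settings), and Slco3a1, an organic anion carrier, was 1.56-fold higher (0.00100). Among 40 genes of ion and water transport 2 fell and 0 rose: the water channel Aqp4 (1.29-fold, adjusted p = 0.0295) and the phosphate carrier Slc34a3 (1.22-fold, 0.0463). Those calls were lost without 5 and 8 of the 10 arrays in turn (up to 0.0845 and 0.104), and both were also lost under normexp and median scaling and with the random block, so that 0 genes of the list were left.

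Among 20 matrix genes 2 rose and 1 fell: Tgfbi, induced by TGF-β, was 1.45-fold higher (adjusted p = 0.00131), the collagen gene Col6a1 1.61-fold higher (0.00743) and the basement membrane collagen gene Col4a1 1.27-fold lower (0.0163; 0.0585 without ZT8 replicate 2). With a random block for the title code or only the 10 arrays in the fit Tgfbi alone passed, Col6a1 lost its call also with the adipose covariate (up to 0.453 over all settings), and with all 48 arrays 0 of the 3 passed. Of 32 genes of mitochondrial respiration 1 fell (3.12%, against 2.23% of all genes), the complex II subunit gene Sdhd (1.42-fold, adjusted p = 0.0391). It lost the call without 5 of the 10 arrays in turn (up to 0.0980) and with the random block. In limma 0 genes passed among 23 heat shock and chaperone genes (4 at an unadjusted p under 0.05), 15 genes of ER stress (5), 18 ribosomal protein genes (0), 14 of ribosome biogenesis (4), 14 proteasome genes (3), 16 cell cycle genes (5) and 15 interferon genes (3). The cold-inducible genes Cirbp, at 7.35 ± 0.17 at ZT12 and 7.58 ± 0.32 at ZT8, and Rbm3, at 9.35 ± 0.28 and 9.10 ± 0.40, did not pass either.

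**Figure D3:**
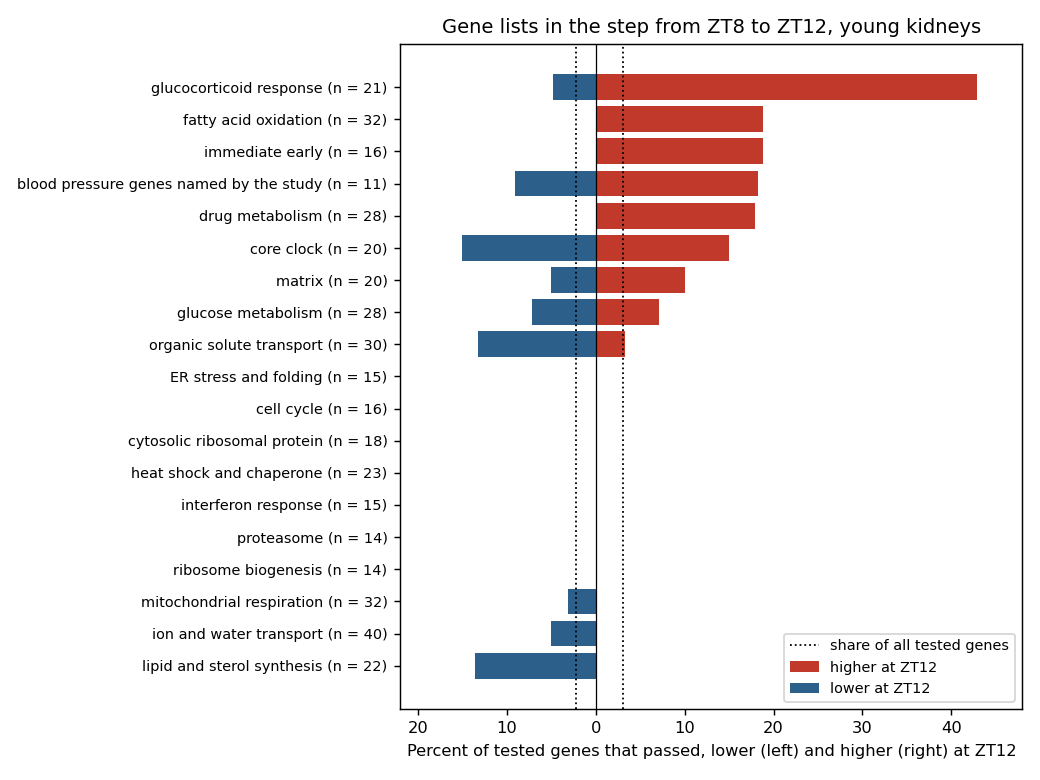
Share of the tested genes that passed in limma, for each list with at least 10 tested genes, higher at ZT12 to the right and lower to the left (percent of the n given), with dotted lines at the shares of all 9459 genes, 3.07% and 2.23%. The glucocorticoid response list had the largest share of rises, 9 of 21 genes, and 7 of the lists drawn had none in either direction.

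The leading falls after Nr1d1 had varied roles too. Xlr4a, of a family of near-identical X-linked copies that 1 probe may not tell apart, stood at 7.69, 6.63 and 7.92 in the ZT_12 set and 7.52, 7.06 and 6.07 in the CR3 set, against 7.96, 8.96, 8.49 and 8.23 at ZT8. Its ZT12 values were scattered and reached almost to the lowest ZT8 array. It was 2.40-fold lower (adjusted p = 0.0176, but 0.0702 without ZT8 replicate 2). Pigt, a subunit of the enzyme that attaches GPI anchors, stood at 6.47, 6.73 and 6.41 in the ZT_12 set and 7.90, 7.86 and 7.65 in the CR3 set, against 8.89, 8.08, 8.09 and 8.40 at ZT8. It was 2.29-fold lower (0.00480), most of it in the ZT_12 set. The call of Pigt was lost with the CR3 set alone, with only the 10 arrays in the fit and with the adipose covariate (up to 0.102). Gatm, the first enzyme of creatine synthesis, was 2.10-fold lower (0.00131) and was the only proximal tubule marker of 8 to change, and its probe was dim, at 5.38 ± 0.43 at ZT12 and 6.45 ± 0.24 at ZT8.

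The receptor kinase gene Epha1 stood at 6.41, 6.79 and 6.49 in the ZT_12 set and 6.85, 6.68 and 6.96 in the CR3 set, against 7.53, 7.29, 7.27 and 7.69 at ZT8, and was 1.68-fold lower (adjusted p = 0.00157). D630023F18Rik (1.69-fold, 0.00169), the semaphorin gene Sema4d (1.68-fold, 0.00841) and the membrane protein gene Tmem176a (1.57-fold, 0.0137) were lower too. All 3 lost their calls with the CR3 set alone. Sema4d and Tmem176a lost them also with only the 10 arrays in the fit and with the adipose covariate. Over all settings the adjusted p reached 0.055 for D630023F18Rik, 0.191 for Sema4d and 0.225 for Tmem176a. The scavenger receptor gene Stab2 was 1.61-fold lower (0.0163; 0.0583 without ZT8 replicate 3). The transcription factor gene Stat4 was 1.67-fold lower (0.0400), detected on 2 of 6 ZT12 arrays and 4 of 4 ZT8 arrays, and lost its call without 6 of the 10 arrays in turn (up to 0.151). The zinc finger gene Zfp560 was detected on 0 of 6 ZT12 arrays and 4 of 4 ZT8 arrays and was thus at least 1.39-fold lower (adjusted p = 0.00583), taking for each ZT12 array the lowest detected signal of that array, or the gene's own level where higher. Its call was lost with the random block, with the CR3 set alone and with the adipose covariate (up to 0.0834).

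The second comparison asked how far the 2 ZT12 array sets agreed, since their titles carry different codes. The study's own sample list also gives the young ZT12 microarrays as 2 sets of 3, without naming title codes. The difference between the sets was tested directly, as the mean of the ZT_12 set minus that of the CR3 set, and it does not involve the ZT8 arrays. In limma 716 genes (7.57%) differed, 387 higher (4.09%) and 329 lower (3.48%) in the ZT_12 set, and 2359 had an unadjusted p under 0.05. The direction of the majority turned with the scaling: 222 were higher and 286 lower under normexp and median scaling, 215 and 502 without background correction under median scaling, and 444 and 522 where every probe was tested on its own. Without ZT12 replicates 1, 2, 3, 5 and 6 in turn the count was 303, 260, 420, 177 and 275. It rose to 943 without replicate 4. With the adipose covariate, whose values did not overlap between the sets, it was 111. The median absolute difference over all genes was 0.151 between the sets and 0.116 between ZT12 and ZT8. Correlations of the arrays over all genes were 0.9875 to 0.9940 within the ZT_12 set, 0.9933 to 0.9946 within the CR3 set and 0.9811 to 0.9910 between the sets, given as a description. The array closest to the CR3 set was ZT12 replicate 4 (mean r 0.9903, against 0.9819 for replicate 5 and 0.9824 for replicate 6).

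Of the 716 genes that differed between the sets, 7.96% also passed in the step. Of the 501 genes of the step, 444 did not pass between the sets and 57 did (11.4%, against 7.57% of all genes), which does not show that the other 444 were equal. Both comparisons used the same 6 ZT12 arrays. Among core clock genes 1 of 20, Btrc, differed between the sets (-0.30, adjusted p = 0.0471) and among glucocorticoid genes 0 of 21 did in limma, with 2 at an unadjusted p under 0.05. Other lists varied. Of 32 genes of fatty acid breakdown 4 were higher and 3 lower in the ZT_12 set, and of 28 glucose genes 1 and 3. Of 23 heat shock and chaperone genes 0 passed between the sets, with 3 at an unadjusted p under 0.05. For Fkbp5 the ZT_12 set minus the CR3 set was 0.08 ± 0.18 (SE), for Per1 0.07 ± 0.32, for Tsc22d3 0.22, for Nr1d1 0.40, for Sgk1 -0.36 and for Nfil3 -0.34. Each of these was smaller than the step of the same gene.

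**Figure D4:**
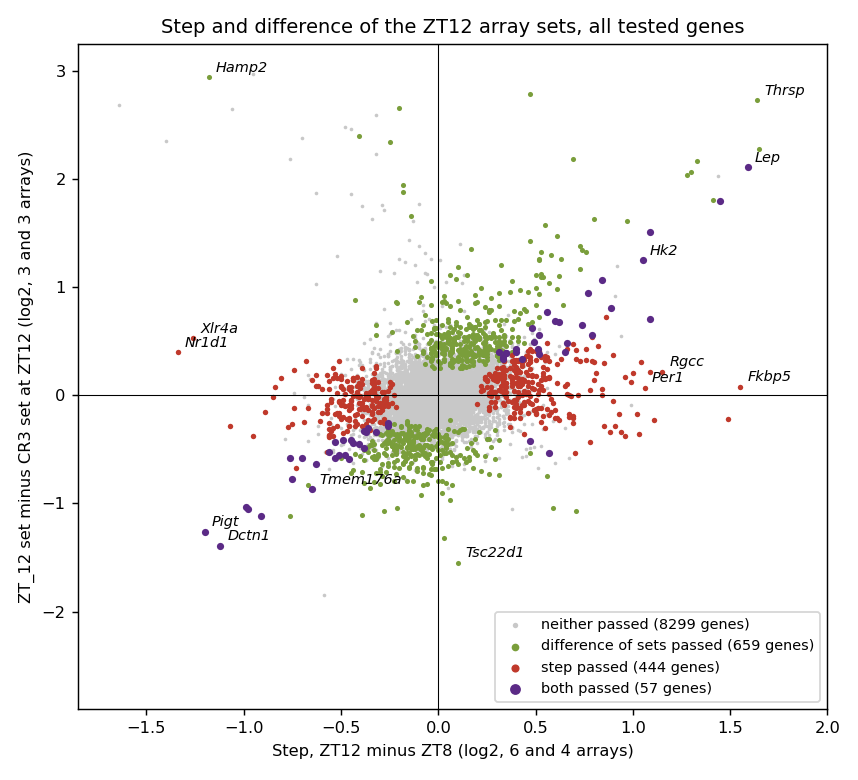
Each point is 1 of 9459 genes, with the step (ZT12 minus ZT8, log2) on the x axis and the ZT_12 set minus the CR3 set (log2) on the y axis; colours mark which comparison passed in limma. Fkbp5, Per1 and Rgcc lie near 0 on the y axis, whereas Pigt, Hk2 and Lep are far from 0 on both axes and Thrsp, Hamp2 and Tsc22d1 differ between the sets alone.

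Set against the same ZT8 arrays, each set gave its own step, and these are values side by side, not independent tests. The ZT_12 set minus ZT8 gave 1434 genes (15.2%), 807 higher and 627 lower, and the CR3 set minus ZT8 gave 156 (1.65%), 102 higher and 54 lower. For the 290 genes that rose, the median was 0.51 in the ZT_12 set and 0.38 in the CR3 set, and for the 211 that fell it was -0.47 in the ZT_12 set and -0.37 in the CR3 set. These genes were chosen by the mean of the same 6 ZT12 arrays, so the shared direction is no test of agreement. Fkbp5 was higher by 1.59 in the ZT_12 set and 1.51 in the CR3 set, Rgcc by 1.26 and 1.04, Per1 by 1.09 and 1.02, and Nr1d1 lower, at -1.14 and -1.54. Pigt, in contrast, was at -1.83 in the ZT_12 set and -0.56 in the CR3 set (difference adjusted p = 2.63e-04), Tmem176a at -1.09 and -0.22 (2.6e-06) and Sema4d at -1.14 and -0.36 (0.00246). The spread within a set, a median SD of 0.132 in the ZT_12 set and 0.116 in the CR3 set, was smaller than the 0.167 over all 6 ZT12 arrays and the 0.174 at ZT8.

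Genes typical of fat were among those that differed between the sets. Of 9 adipose markers 5 were tested, and 4 of these were higher in the ZT_12 set, with a median difference of 2.04: the fat hormones Lep and Adipoq, Adig and the lipid droplet gene Cidec. Lep stood at 7.12, 7.75 and 7.43 in the ZT_12 set and 5.64, 5.22 and 5.12 in the CR3 set, against 5.0, 4.51, 4.47 and 5.17 at ZT8. It was 4.31-fold higher in the ZT_12 set than in the CR3 set (adjusted p = 5.83e-04). The mean of the 5 markers, relative to the 10 arrays, was 0.92 to 1.88 in the ZT_12 set, -0.89 to 0.14 in the CR3 set and -1.95 to 0.01 at ZT8. Of the other markers Fabp4 and Retn were detected on 0 of the 10 arrays. Thrsp, a lipogenic gene, was 6.62-fold higher in the ZT_12 set (0.00789), with 8.60, 9.38 and 9.70 against 6.43, 6.44 and 6.63 in the CR3 set.

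These markers also moved with the step, in which Lep (log2 1.59 ± 0.42, adjusted p = 0.0270) and Adig (1.45 ± 0.41, 0.0398) rose, by 2.65 and 2.35 in the ZT_12 set and 0.54 and 0.55 in the CR3 set. Both calls were lost without ZT12 replicate 4, 5 or 6 or ZT8 replicate 2 or 3, and that of Adig without ZT8 replicate 4 too (adjusted p up to 0.0751 and 0.117). With their mean as a covariate, 173 genes remained for the step, 153 of them among the 501, and 111 for the difference between the sets, 94 of them among the 716. The rises of Fkbp5, Tsc22d3, Sgk1, Per1 and Nfil3 and the falls of Nr1d1 and Dbp passed with the covariate. The covariate did not overlap between the ZT12 sets, so at ZT12 it cannot be told apart from the set. What part fat has in the other changes was not tested.

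Genes of plasma proteins known from liver held the largest fitted differences. Hamp2, a hepcidin, stood at 5.45, 9.17 and 9.17 in the ZT_12 set and 5.38, 4.78 and 4.81 in the CR3 set, with 7.91, 6.30, 9.12 and 7.23 at ZT8. It was 7.66-fold higher in the ZT_12 set (adjusted p = 0.0422), but ZT12 replicate 4 was at the level of the CR3 set, and the ZT8 arrays lay between 6.30 and 9.12. Without 1 of the 6 ZT12 arrays the difference of Hamp2 was 2.32 (without replicate 5 or 6) to 4.18 (without replicate 4) on the log2 scale, against 2.94 with all. The acute phase gene Orm1 was 6.91-fold higher (0.00273), the inhibitor heavy chain gene Itih4 6.33-fold (0.0113) and Ambp 5.27-fold (0.0333; log2 2.40, but 3.14 without replicate 4). Albumin (Alb) was detected on 0 of the 10 arrays, and of 4 tested pancreas and liver markers 0 passed in limma (3 at an unadjusted p under 0.05), with a median difference of 0.65 and mean relative levels of -0.31 to 0.84 in the ZT_12 set, -0.81 to -0.41 in the CR3 set and -0.36 to 0.58 at ZT8. The calls of Hamp2 and Ambp were each lost without 5 of the 6 ZT12 arrays in turn, all but replicate 4 (adjusted p up to 0.215 and 0.155), and that of Itih4 without replicate 5 or 6 (0.0635). With the adipose covariate the calls of all 4 genes were lost (adjusted p = 0.125 for Orm1, 0.23 for Itih4, 0.436 for Ambp and 0.458 for Hamp2), as were those of Thrsp (0.275) and Ccn1 (0.0505). Since that covariate also separates the sets, these losses do not tell fat from the set.

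**Figure D5:**
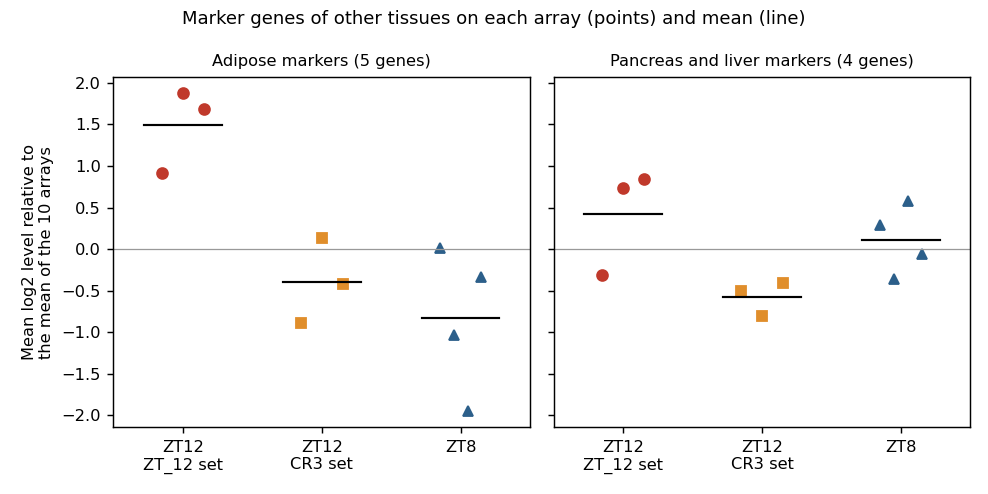
Mean log2 level of 5 adipose markers (left) and 4 pancreas and liver markers (right) on each array, relative to the mean of the 10 arrays, with the ZT_12 set on the left, the CR3 set in the middle and ZT8 on the right; lines are means. The adipose mean lies between 0.92 and 1.88 on the ZT_12 arrays and at or below 0.14 on all others.

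In the other direction, Tsc22d1, a relative of Tsc22d3, was 2.93-fold lower in the ZT_12 set (adjusted p = 9.72e-04), at 7.62, 8.15 and 7.89 against 9.25, 9.97 and 9.11 in the CR3 set, with ZT8 between them at 8.29 to 8.89. The dynactin subunit gene Dctn1 was detected on 0 of 3 arrays of the ZT_12 set and 3 of 3 of the CR3 set and was thus at least 2.19-fold lower (5.01e-04). It passed in the step as well (log2 -1.12 ± 0.28, adjusted p = 0.0187), a call lost without ZT8 replicate 1 or 4 (up to 0.0805). Ccn1 was 2.51-fold lower (0.00538), Pigt 2.40-fold lower (2.63e-04) and the steroid dehydrogenase gene Hsd17b11 2.18-fold lower (0.00619). For Ccn1 and Tsc22d1 the 2 sets lay on opposite sides of the ZT8 mean, so that their step over all 6 arrays was 0.03 ± 0.30 and 0.10 ± 0.32.

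The third comparison set the young step beside the same step in nephritic kidneys, which shares no array with it. The 5 nephritic ZT12 arrays carried 2 title codes, on 2 and 3 arrays, and the 5 nephritic ZT8 arrays a further one, so code and time cannot be told apart in that step either. The study's sample list places 3 young and 3 nephritic ZT12 microarrays in a second set, and no ZT8 microarray. An effect of that set could enter both steps alike, which was not tested. In the fit of all 48 arrays the nephritic step gave 245 genes (2.59%), 91 higher and 154 lower. The young step passed for 46 genes in that fit, and the 501 given above came from the young arrays alone. The difference of the young step minus the nephritic step passed for 0 genes (0%) in limma, with 794 at an unadjusted p under 0.05 and a smallest adjusted p of 0.106, so a difference of the steps was not shown for any gene in that fit. With array weights 93 genes passed, with ZT12 taken from the ZT_12 set 26, and without ZT8 replicate 1 or 3 in turn 1. Of the 290 genes that rose in young kidneys, 224 (77.2%) were also higher at ZT12 in nephritic kidneys, against 48.7% of all genes, and 22 passed there. Of the 211 that fell, 154 (73.0%) were also lower, against 51.3% of all genes, and 26 passed. Here and in the next paragraph, standard errors of the young step come from the 26 young arrays. Those of the nephritic step come from all 48 arrays, so the 2 are not on a like basis. Fkbp5 was higher by 1.55 ± 0.14 in young and 1.38 ± 0.24 in nephritic kidneys (SE, nephritic adjusted p = 6.95e-04), Tsc22d3 by 1.09 and 0.95, Sgk1 by 1.03 and 1.13, Nfil3 by 0.88 and 1.32, and Nr1d1 was lower, at -1.34 and -1.86. Per1 was higher by 1.06 in young and 0.16 in nephritic kidneys, and this difference of steps did not pass (adjusted p = 0.525). Rgcc (1.15 and 0.35), Ptgis (1.04 and 0.16) and Foxq1 (0.99 and -0.17) differed likewise without passing (0.532, 0.206 and 0.224).

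The 5 genes with the smallest p for the difference of the steps passed in nephritic kidneys and did not pass in young kidneys. The cold-inducible Cirbp was at -0.23 ± 0.20 in young and -1.39 ± 0.23 in nephritic kidneys, and the peroxisome gene Pex16 at 0.10 and -0.63, the muscle gene Nrap at 0.11 and -0.97, the DNA repair gene Mrnip at 0.05 and -0.79 and the mitochondrial carrier gene Slc25a48 at 0.32 and -0.59. For all 5 the adjusted p of the difference was 0.106.

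Beside the other steps of the young day, that from ZT8 to ZT12 was the second in number with all 6 ZT12 arrays. In the same fit 666 genes (7.04%) differed from ZT0 to ZT4, 175 (1.85%) from ZT4 to ZT8, 501 from ZT8 to ZT12, 413 (4.37%) from ZT12 to ZT16, 27 (0.285%) from ZT16 to ZT20 and 0 (0%) from ZT20 to ZT0 in limma, the last with 365 at an unadjusted p under 0.05. Numbers of arrays were alike except for the 6 at ZT12, and each time but ZT12 had 1 title code, so time and code cannot be told apart here either. The place of the step from ZT8 to ZT12 depends on the arrays used. It passed for 143 genes with ZT12 from the CR3 set alone, and for 249 to 591 with 1 array left out. The other steps were not counted under those settings.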

How the data were processed

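Kidney RNA of single mice was hybridised to Illumina MouseRef-8 v2.0 arrays. The authors read bead signals in GenomeStudio (version not given in the sources used here) and deposited 1 intensity per probe and array, not normalized, with a detection p-value per probe, which the authors' software set against negative control probes. A deposited table of the authors' processed intensity values was used only as an alternative, and its arrays had medians of 106.8 to 106.9. Its steps are not given in full in the sources used here.

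Signals were background-corrected and quantile-normalized over the 48 arrays (neqc with an offset of 16, limma 3.58.1, R 4.3.3). Probes with 1 gene symbol, detected at p under 0.05 on at least 4 of the 10 arrays, were kept, 1 per gene (the highest mean over the 10 arrays). Contrasts of group means over 26 young arrays (48 for the nephritic step) were tested in limma, two-sided, with Benjamini-Hochberg adjustment over 9459 genes and a threshold of 0.05. Replicates are numbered in the order of the records, since the labels give no numbers, and these numbers pair no arrays.

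Named genes were the 12 largest rises and 12 largest falls among genes that passed without overlap of the times, all tested clock, glucocorticoid and cold-inducible genes, up to 4 genes with the smallest p of each other list, the 5 largest differences between the ZT12 sets in each direction and the 5 smallest p for the difference from nephritic kidneys. The gene lists and the members were chosen with earlier results of these data known. The scripts were tested on simulated data with known changes. The precision is limited by the number of arrays.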

Additional observations from a re-analysis of the deposited data

Results flagged for a closer look

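In 200 groups of arrays of the named genes, 9 held 1 array far from the others, and chance alone sets about 1 in 20 such groups apart. Dbp at ZT12 was highest on replicate 5, 12.06, with the next at 11.55. Csnk1e at ZT8 was lowest on replicate 1, 7.53 (next 7.98), and Csnk1d at ZT12 highest on replicate 6, 8.06 (next 7.84). Ccn2 at ZT12 was lowest on replicate 4, 10.94 (next 11.45). BC028528 was highest on ZT12 replicate 6, 6.90 (next 6.53), and Zfp560, not detected at ZT12, lowest there, 4.25 (next 4.49). ZT12 replicate 2 was highest for Slc25a20, 11.13 (next 10.82), and Ces1d, 13.31 (next 13.17). Col4a1 at ZT8 was lowest on replicate 4, 10.29 (next 10.61).

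For 13 named genes that passed in the step, the ZT_12 set and the CR3 set gave steps that differed by limma's test of the difference itself. The difference was larger than 1 log2 unit for Lep (2.11; 2.65 in the ZT_12 set and 0.54 in the CR3 set), Adig (1.80; 2.35 and 0.55), Hk2 (1.25; 1.67 and 0.42), Dctn1 (-1.39) and Pigt (-1.26; -1.83 and -0.56). It was -0.87 for Tmem176a, -0.77 for Sema4d, -0.58 for D630023F18Rik, -0.43 for Slc7a8 and -0.30 for Btrc. It was 0.65 for Cyp2e1, 0.43 for Pex11a and 0.40 for Slco3a1. For all 13 genes both sets lay on the same side of ZT8. The adipose markers moved with these sets. With their mean as a covariate, D630023F18Rik and Slco3a1 kept their step calls and the others of the 13 lost theirs. Lep and Adig are themselves part of that mean. What part fat has in these genes was not tested further.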

How the results depend on the processing

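The step passed for 501 genes, for 102 with only the 10 arrays in the fit, 46 with all 48, 184 with array weights, 111 with the title code as random effect (consensus correlation 0.134; all 111 are among the 501), 143 with ZT12 from the CR3 set, 1313 from the ZT_12 set, and 0 by an exact two-sided Mann-Whitney test, the test the methods name for pairs of groups, after adjustment (1092 unadjusted; smallest possible p 0.00952). With the adipose covariate, chosen after seeing the data, it was 173. Leaving out 1 array gave 249 to 591. The 716 genes between the sets became 1625 with array weights, 111 with the adipose covariate and 177 to 943 leaving out 1 array. For the young minus the nephritic step, 0 became 93 with array weights, 26 with ZT12 from the ZT_12 set, 0 to 1 leaving out 1 array and 0 with only the 20 arrays of ZT8 and ZT12, the last also chosen after seeing the data. The causes were not tested beyond fewer arrays or genes in a fit. Normexp with median scaling split the step into 302 higher and 123 lower (290 and 211 as reported) and the sets into 222 and 286 (387 and 329), plain median scaling split the sets into 215 and 502, and every probe on its own into 444 and 522. The other total counts stayed within 1.5 times.

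Of 67 named genes that passed in the step, all 67 kept their direction under every alternative run, 41 kept their call with each array left out and 10 under every alternative: Nfil3, Nr1d1, Fkbp5, Tsc22d3, Map3k6, Rgcc, Ccn2, Ptgis, BC028528 and Foxq1. With a random block for the title code 31 of the 67 passed, with only the 10 arrays in the fit 33, with all 48 arrays 18, with array weights 41, with ZT12 from the CR3 set 36 and with the adipose covariate 39. Of 9 genes named between the sets 3 did, Tsc22d1, Dctn1 and Hsd17b11. No paired analysis was possible because the labels give no replicate numbers that tie arrays together. Slides as a block were not run, since the headers name none.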
